A study of Mus musculus with 6 samples.

Results

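The genes described here encode 3 osteocalcin copies (*Bglap*, *Bglap2* and *Bglap3*), matrix Gla protein (*Mgp*), the vitamin K-dependent growth factor *Gas6*, the γ-glutamyl carboxylase *Ggcx* and the vitamin K epoxide reductases *Vkorc1* and *Vkorc1l1*. They were taken by gene symbol, and all 8 were found among the 55401 genes counted in RNA-Seq of mouse tibia. All 8 passed the filter on low counts, which left 20636 genes to test. Tibias came from male mice 8 weeks of age, 3 Atrx-cKO (*Osterix-Cre; Atrxfl/y*) and 3 control (*Atrxfl/y*), 1 library per mouse. The control mice had the floxed allele but no Cre transgene. *Osterix-Cre* is driven by the *Sp7* promoter in preosteoblasts and is held off by doxycycline, which the mice received from conception until 3 weeks of age. A tibia also holds blood, vessel and muscle cells outside the osteoblast lineage. The paper saw the Cre fusion protein in prehypertrophic and hypertrophic growth plate zones too. In its assays, marrow stromal cells cultured from Atrx-cKO mice differed from control. No library came from mice with *Osterix-Cre* and an intact *Atrx*. In tibias of such mice the paper found no significant difference from control in *Runx2*, *Col1a1* or *Ocn* (osteocalcin). The reads counted on genes numbered 58029939, 55178546 and 56970091 in the Atrx-cKO libraries and 54395736, 70571655 and 50977777 in the control libraries.

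γ-Carboxylation turns selected glutamate residues of a protein into Gla residues, which bind calcium. GGCX carries out the reaction with reduced vitamin K, and VKORC1 and VKORC1L1 regenerate that cofactor from the epoxide that is left. Osteocalcin is the most abundant Gla protein of bone matrix and is made by osteoblasts and osteocytes, and matrix Gla protein, known from cartilage and vascular smooth muscle, is an inhibitor of mineralization. The mouse carries a cluster of osteocalcin genes in which *Bglap* and *Bglap2* are the copies of bone and *Bglap3*, the osteocalcin-related gene, is known mainly from the kidney.

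The cluster spans 15.8 kb on chromosome 3 (GRCm38, minus strand), with *Bglap3* at chr3:88368616-88372743, *Bglap2* at chr3:88377736-88378699 and *Bglap* at chr3:88383501-88384464. Because the copies are so alike, their coding sequences are shown, read from GENCODE M21 on the coding strand. Capitals mark the 13 of 288 bases at which the 3 genes are not all the same.
Bglap: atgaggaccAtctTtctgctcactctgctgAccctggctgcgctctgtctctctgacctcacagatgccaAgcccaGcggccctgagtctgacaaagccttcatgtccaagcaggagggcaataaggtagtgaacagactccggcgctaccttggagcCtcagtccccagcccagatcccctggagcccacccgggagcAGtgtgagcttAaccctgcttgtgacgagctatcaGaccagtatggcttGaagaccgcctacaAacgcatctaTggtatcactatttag
Bglap2: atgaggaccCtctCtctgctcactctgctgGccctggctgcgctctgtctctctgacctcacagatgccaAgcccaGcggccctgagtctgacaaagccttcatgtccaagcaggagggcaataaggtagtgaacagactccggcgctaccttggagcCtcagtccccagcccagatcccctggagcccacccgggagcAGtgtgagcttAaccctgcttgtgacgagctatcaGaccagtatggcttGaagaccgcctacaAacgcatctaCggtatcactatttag
Bglap3: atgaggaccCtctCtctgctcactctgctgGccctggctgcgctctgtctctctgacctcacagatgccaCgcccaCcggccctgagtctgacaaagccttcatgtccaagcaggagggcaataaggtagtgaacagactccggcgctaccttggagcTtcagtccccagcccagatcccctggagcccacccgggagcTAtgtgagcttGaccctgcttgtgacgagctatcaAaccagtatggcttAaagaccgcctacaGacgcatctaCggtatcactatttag
*Bglap3* differed from both other genes at 9 of these 13 positions and *Bglap* at the other 4, whereas *Bglap2* carried no base of its own. Identity was 98.6% between *Bglap* and *Bglap2*, 96.9% between *Bglap2* and *Bglap3* and 95.5% between *Bglap* and *Bglap3*.

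The start regions of *Bglap* and *Bglap3* are shown because the values below set these genes apart. Each runs from 250 bases before the RefSeq start to 50 bases from it (GRCm38.p6, minus strand), at chr3:88384417-88384716 for *Bglap* and at chr3:88372692-88372991 for the outermost of 3 *Bglap3* starts. Capitals mark matches on either strand to 3 short motifs. The core of the RUNX site was searched as TGTGGT, and the paper's RUNX motif, TGNGGTT, was not searched. The osteocalcin element bound by ATF4 was searched as TTACATCA. The TATA box was searched as TATAA.
Bglap start: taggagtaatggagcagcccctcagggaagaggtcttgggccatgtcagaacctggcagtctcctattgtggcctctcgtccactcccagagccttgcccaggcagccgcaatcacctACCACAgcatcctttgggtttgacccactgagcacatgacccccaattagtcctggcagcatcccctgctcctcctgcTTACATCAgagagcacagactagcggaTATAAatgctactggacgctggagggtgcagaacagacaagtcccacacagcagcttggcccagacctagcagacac
Bglap3 start: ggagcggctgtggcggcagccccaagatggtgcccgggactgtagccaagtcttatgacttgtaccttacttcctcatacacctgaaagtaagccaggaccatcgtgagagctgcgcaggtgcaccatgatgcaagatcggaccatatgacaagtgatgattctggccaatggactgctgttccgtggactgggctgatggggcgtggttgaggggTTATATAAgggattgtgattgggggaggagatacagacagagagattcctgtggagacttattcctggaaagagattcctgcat
In *Bglap* the RUNX match began 132 bases before the start and reads as its reverse complement here, the ATF4 match began 54 bases before and the TATA match 27 bases before. The *Bglap3* region held 2 overlapping TATA matches, one on each strand, beginning 34 and 31 bases before the start, and neither of the other motifs. The regions at the 2 inner *Bglap3* starts matched none of the 3 motifs. Among all 32851 mouse start regions of this length, 16.8% held the RUNX motif, 1.10% the ATF4 motif and 24.9% the TATA motif. *Bglap2* had no matched start region, so whether these motifs follow expression over the 3 copies was not tested.

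*Atrx*, the targeted gene, was at 153, 166 and 171 CPM in Atrx-cKO and at 174, 166 and 165 CPM in control, where CPM are reads per 1e6 reads on genes, scaled by TMM. The groups overlapped (log2 fold change -0.05 ± 0.08, SE; edgeR adjusted p = 0.992). *Osterix-Cre* acts in the osteoblast lineage, so reads on the whole gene in whole bone do not check the genotype.

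*Bglap* and *Bglap2* were among the most abundant transcripts of these bones. *Bglap* was at 1790, 2140 and 2570 CPM in the Atrx-cKO libraries and at 1870, 3020 and 2650 in control. *Bglap2* was at 675, 885 and 1000 in Atrx-cKO and at 764, 1250 and 803 in control. The groups overlapped for both genes, and each was highest in control library 2. The log2 fold change of Atrx-cKO over control was -0.21 ± 0.20 (SE) for *Bglap* and -0.14 ± 0.22 for *Bglap2*, and neither passed edgeR's quasi-likelihood test (adjusted p = 0.992 for both). By RT-qPCR of Atrx-cKO tibias, the paper reported increasing trends of *Ocn* (osteocalcin), *Runx2* and *Col1a1*.

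*Bglap3* was scarce and stood apart between the genotypes. It had 287, 338 and 363 reads in the Atrx-cKO libraries and 101, 169 and 104 in control. In CPM this was 4.91, 5.92 and 6.16 in Atrx-cKO and 1.77, 2.54 and 2.18 in control. Every Atrx-cKO library was above every control library, with SDs of 0.665 and 0.384 CPM around means of 5.66 and 2.16 CPM (n = 3 each). The difference was 2.61-fold, or 1.39 ± 0.20 (SE) on the log2 scale. It was not called by edgeR's quasi-likelihood test, in which a call needs an adjusted p under 0.05 and a change by 1 or more on the log2 scale (unadjusted p = 0.00014, adjusted p = 0.265), and was called by DESeq2's Wald test (log2 fold change 1.38, adjusted p = 1.96e-06). *Bglap3* ranked 10 by edgeR's p among the 20636 genes.

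Of the 8 genes, edgeR thus called 0, against 0.0145% of the 20636 genes it tested, and DESeq2 called 1, against 0.0871% of the 26404 genes to which it gave an adjusted p. At an unadjusted p under 0.05, edgeR gave 1 of 8, against 3.64% of all genes. Groups did not overlap for 1 of 8, against 8.31% of all genes. The median log2 fold change was -0.08 over the 8 genes and 0.00 over all genes tested.

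**Figure D1:**
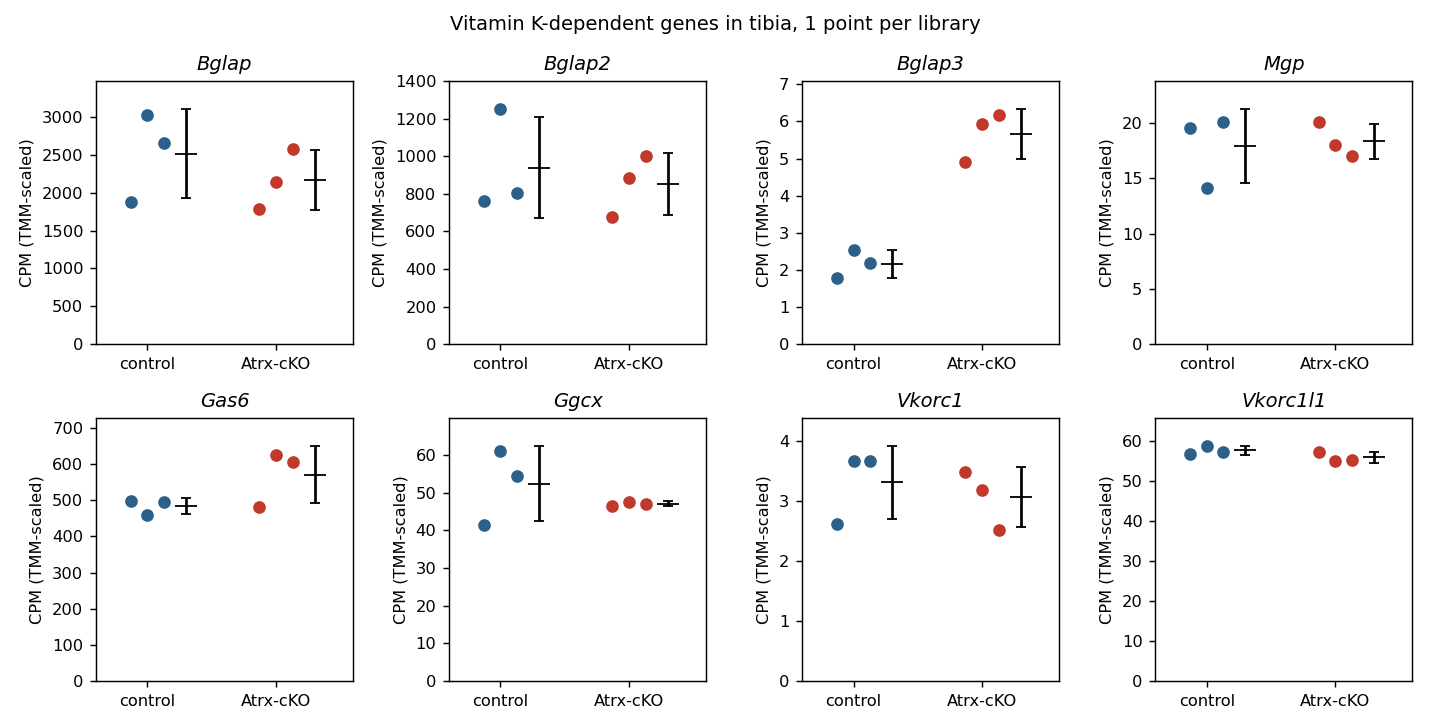
CPM (TMM-scaled, linear axes from 0) of the 8 genes in control (blue) and Atrx-cKO (red) tibias, 1 point per library, with the mean and SD in black. *Bglap3* is the gene whose groups do not overlap, at 1.77 to 2.54 CPM in control and 4.91 to 6.16 CPM in Atrx-cKO.

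Reads from near-identical genes can be credited to the wrong copy, so the sequence shared among annotated transcripts was measured. At 150 bases, the length of the reads, 0 of 2913 *Bglap3* windows occurred in *Bglap* or *Bglap2*, whereas 92 windows were common to *Bglap* and *Bglap2*, 19.6% of those of *Bglap* and 28.6% of those of *Bglap2*. At 100 bases the share found in another copy was 1.03% for *Bglap3*, 38.7% for *Bglap* and 57.0% for *Bglap2*. The division of reads between *Bglap* and *Bglap2* is therefore uncertain, and most *Bglap3* windows of this length were its own. The difference in *Bglap3* between group means, 3.50 CPM, corresponded to 0.116% of the reads on *Bglap* and *Bglap2* in Atrx-cKO. Whether reads with sequencing errors were misplaced was not tested.

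**Figure D2:**
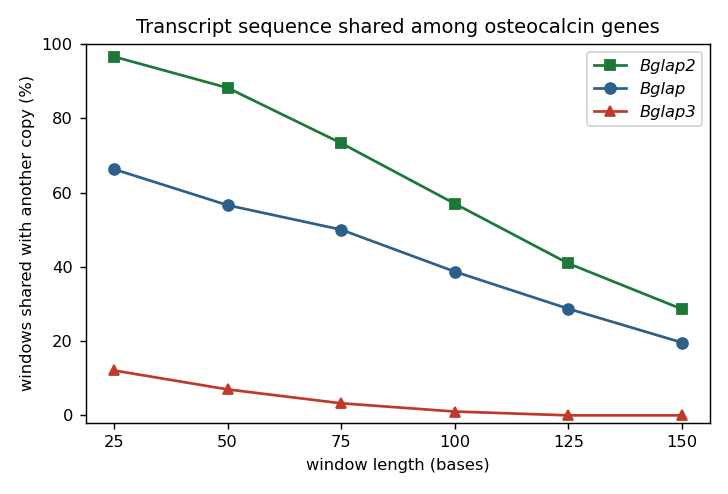
Percentage of all windows of a given length in the annotated transcripts of each osteocalcin gene that also occur in another copy, by window length in bases. These are shares of windows and not of reads. The *Bglap3* line reaches 0 at 125 bases, where *Bglap* is at 28.7% and *Bglap2* at 40.9%.

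The copies were then summed and set against each other within each library. The 3 genes summed to 2470, 3030 and 3570 CPM in Atrx-cKO and to 2630, 4270 and 3450 CPM in control. The groups overlapped in this sum and differed by -0.18 on the log2 scale (exact two-sided permutation test, p = 0.5), or by -0.10 without TMM scaling. The sum does not depend on how reads were divided among the copies, but reads that fit more than 1 copy may be missing from it, since reads that were not unique were set aside in the tables, and the *Bglap3* share would then be too high in both groups. The shares and ratios that follow do not depend on library scaling, apart from the CPM added to the ratios. *Bglap3* made up 0.199%, 0.195% and 0.172% of the sum in Atrx-cKO and 0.0673%, 0.0595% and 0.0633% in control. The 95% Wilson intervals of these shares, which cover counting error only, ran from 0.156% to 0.223% over the Atrx-cKO libraries and from 0.0512% to 0.0817% over the control libraries. The interval of no Atrx-cKO library overlapped that of any control library.

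The log2 ratio of *Bglap3* to *Bglap* plus *Bglap2*, with 0.5 CPM added to each, averaged -8.93 in Atrx-cKO and -10.32 in control, with SDs of 0.12 and 0.14 (n = 3 each). The difference of 1.39 had an exact two-sided permutation p = 0.1, the smallest that 3 against 3 libraries allow. The difference was 1.41 against *Bglap* alone and 1.33 against *Bglap2* alone, with the same exact p = 0.1. *Bglap3* was among the genes the study selected on these samples, and its groups were already apart. The p-values of these ratios and of the osteoblast ratio below are thus no independent test. *Bglap* relative to *Bglap2* averaged 2.55 in Atrx-cKO and 2.72 in control, with SDs of 0.117 and 0.497 (n = 3 each). Control library 3 had the highest value of this ratio, 3.29, and the other 5 libraries lay between 2.42 and 2.65.

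**Figure D3:**
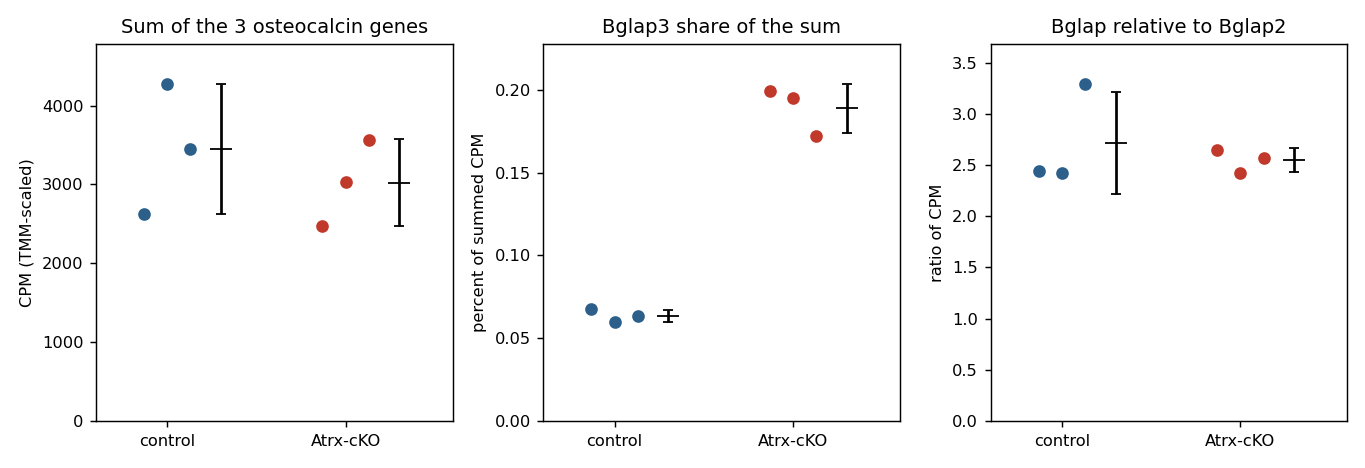
Summed CPM of *Bglap*, *Bglap2* and *Bglap3* (left), the percentage of that sum from *Bglap3* (middle) and the ratio of *Bglap* to *Bglap2* (right) in control (blue) and Atrx-cKO (red), 1 point per library, with the mean and SD in black and axes from 0. The groups overlap in the sum and in the ratio and are apart in the *Bglap3* share, 0.0595% to 0.0673% against 0.172% to 0.199%.

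Markers of osteoblasts were strong in every library and leaned lower in Atrx-cKO, where *Bglap3* was higher. The 9 genes of the osteoblast list, of which *Col1a1* was the most abundant, summed to 128000, 129000 and 133000 CPM in Atrx-cKO and to 121000, 206000 and 187000 CPM in control. All 9 had a log2 fold change below 0 (median -0.34), 0 were called, and the groups did not overlap for 2 of them, *Ibsp* and *Phospho1*, both lower (groups were apart and lower for 4.01% of all genes tested). *Bglap3* relative to the summed osteoblast list was 1.58 higher in Atrx-cKO on the log2 scale, with no overlap (exact two-sided permutation test, p = 0.1). In whole bone, fewer cells of a type and less RNA per cell cannot be told apart. The 6 endothelial markers were at 569, 590 and 585 CPM in Atrx-cKO and 566, 521 and 521 CPM in control, led by *Cdh5*. All 6 had a log2 fold change above 0 (median 0.12), 0 were called, and *Kdr* and *Tek* were apart and higher, as were 4.30% of all genes tested. Their part in the *Bglap3* difference was not tested.

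Control library 3 stood apart in skeletal muscle genes, whose 10 markers, led by *Myh4*, summed to 11700 CPM there and to 696 to 2370 CPM in the other libraries. *Myh1* and *Myh2* went the other way, at 52.4 and 10.7 CPM in control library 3 and highest in Atrx-cKO library 1, at 181 and 69.5 CPM. Without control library 3 the *Bglap3* log2 fold change was 1.38 (adjusted p = 0.763 in edgeR's test and 0.000134 in DESeq2's). Over all 6 single-library omissions it lay between 1.26 and 1.52, with adjusted p between 0.119 and 0.998 in edgeR's test and between 2.41e-06 and 0.00187 in DESeq2's.

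Log2 fold changes of the cluster's neighbors were near 0, with wide errors for the scarce ones. The 5 tested genes on one side were *Cct3*, *Glmp*, *Tmem79*, *Smg5* and *Paqr6*, and those on the other *Pmf1*, *Slc25a44*, *Sema4a*, *Lmna* and *Gm37584*. Their log2 fold changes ran from -0.22 to 0.10, with a lowest adjusted p of 0.992, and the groups did not overlap for 2 of the 10, *Glmp* and *Lmna*, both lower, against 4.01% of all genes tested. *Paqr6*, next to *Bglap3*, had 17 to 42 reads per library and was at 0.07 ± 0.40 (SE). *Gm37584* was at -0.04 ± 0.35, so differences in these genes could be missed. Between the copies lie 2 tested pseudogenes. *Gm21956*, next to *Bglap3*, was at 0.376, 0.385 and 0.628 CPM in Atrx-cKO and at 0.0351, 0.105 and 0.588 CPM in control, and *Gm6821* was at 1.40, 1.65 and 2.41 CPM and at 1.19, 0.886 and 2.84 CPM. Both overlapped between groups, with log2 fold changes of 0.98 ± 0.84 (SE) and 0.16 ± 0.45.

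**Figure D4:**
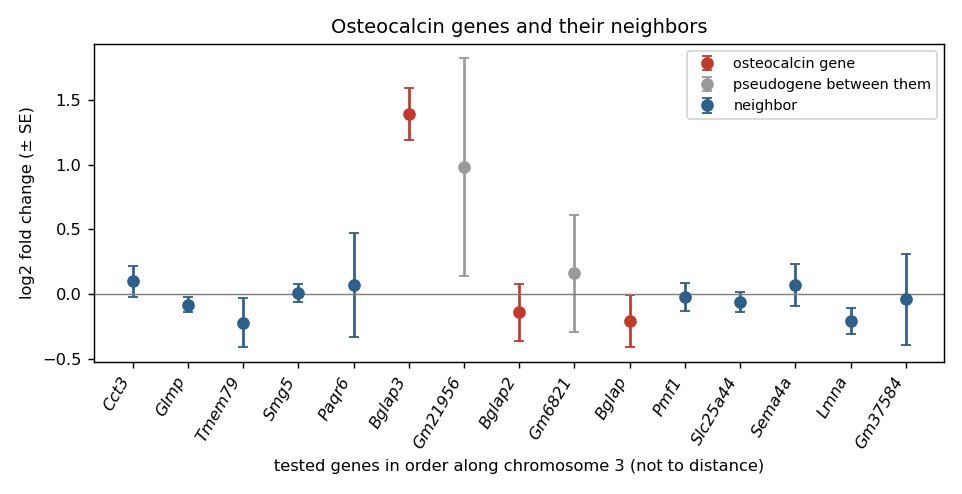
Log2 fold change (Atrx-cKO over control, ± SE) of the tested genes in their order along chromosome 3, with osteocalcin genes in red, pseudogenes between them in gray and 5 neighbors on each side in blue. *Bglap3* is at 1.39, *Bglap2* at -0.14 and *Bglap* at -0.21, and the 10 neighbors lie between -0.22 and 0.10.

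*Mgp* (chr6:136872435-136875823, minus strand) was counted far less than *Bglap* and *Bglap2*. It was at 20.1, 18.0 and 17.0 CPM in Atrx-cKO and at 19.6, 14.1 and 20.1 CPM in control, with overlapping groups. The log2 fold change was 0.04 ± 0.15 (SE; adjusted p = 0.994 in edgeR's test). Lists for the cell types best known for *Mgp* gave 0 calls. The 5 smooth muscle markers, led by *Acta2*, summed to 73.0, 61.8 and 48.2 CPM in Atrx-cKO and to 64.1, 60.1 and 63.0 CPM in control. The 14 chondrocyte markers, led by *Col11a1*, summed to 3790, 3710 and 4170 CPM in Atrx-cKO and to 4010, 7390 and 6500 CPM in control, and of the 13 tested 8 were above 0 and 5 below. The sum was mostly *Col11a1* and *Col2a1*, which had log2 fold changes of -0.66 and -0.56 (edgeR unadjusted p = 0.0252 and 0.025, adjusted p = 0.992 for both), while *Col10a1*, *Col9a1* and *Cnmd* were at 1.51, 0.80 and 0.64 (adjusted p = 0.992 each). Library 3 of each group stood apart in these last genes. *Col10a1*, the collagen of hypertrophic cartilage, was at 0.684, 1.19 and 31.3 CPM in Atrx-cKO and at 0.596, 2.03 and 9.14 CPM in control, and *Col9a1* was at 2.51, 2.10 and 9.68 CPM and at 0.876, 1.10 and 6.30 CPM. The *Mgp* log2 fold change was 0.09 without Atrx-cKO library 3 and 0.11 without control library 3, and that of *Bglap3* was 1.32 and 1.38. *Matn1* did not pass the filter.

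*Gas6* (chr8:13465374-13494490, minus strand), a ligand of the TAM receptors, was the most abundant per kb of these genes after *Bglap* and *Bglap2*. It was at 480, 626 and 607 CPM in Atrx-cKO and at 498, 460 and 495 CPM in control. Atrx-cKO libraries 2 and 3 were above every control and library 1 was within the control range. The log2 fold change of 0.24 ± 0.12 (SE) did not pass edgeR's test (unadjusted p = 0.0863, adjusted p = 0.992). Of its exon bases, 1.33% overlap *Tmem255b* on the opposite strand.

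The carboxylase and both reductases were detected in every library, with overlapping groups. *Ggcx* (chr6:72414308-72430712, plus strand) was at 46.3, 47.6 and 47.0 CPM in Atrx-cKO and at 41.4, 61.1 and 54.5 CPM in control, the Atrx-cKO values lying inside the control range. *Vkorc1l1* (chr5:129941970-129986692, plus strand) was at 57.3, 54.9 and 55.3 CPM in Atrx-cKO and at 56.7, 58.7 and 57.3 CPM in control, a narrow range over all 6 libraries. *Vkorc1* (chr7:127893063-127895617, minus strand) was at 3.49, 3.19 and 2.51 CPM in Atrx-cKO and at 2.61, 3.66 and 3.66 CPM in control. Groups overlapped for all 3, with log2 fold changes of -0.16 ± 0.14 (SE), -0.04 ± 0.06 and -0.11 ± 0.22, and none passed edgeR's test (lowest adjusted p = 0.992). Of the *Vkorc1* exon bases, 47.7% also belong to *Gm21974* on the same strand, a gene with 0 reads in all 6 libraries. Reads that fall on more than 1 gene were set aside as ambiguous in the tables, so *Vkorc1* may be undercounted.

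Levels between genes were compared as CPM per kb of exon, averaged over the 6 libraries. The order was *Bglap* (3780), *Bglap2* (1900), *Gas6* (207), *Mgp* (15.3), *Ggcx* (15.3), *Vkorc1l1* (10.8), *Vkorc1* (3.79) and *Bglap3* (1.49). *Mgp* and *Ggcx* did not differ beyond their spread over libraries, and no other neighbors in this order overlapped. The length used matters for the lower genes, because exons of all isoforms were joined. Taking single coding transcripts instead, *Bglap3* lay between 1.91 and 5.46 CPM per kb, *Vkorc1* between 4.26 and 8.23 and *Vkorc1l1* between 11.8 and 87.2, while *Mgp* was at 29.4 and *Ggcx* at 16.9. The order of the lowest 5 thus depends on the isoform assumed.

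The other pathway genes reported here gave 0 calls by either tool. Of 12 other Gla proteins, 8 were tested, of which 6 had a log2 fold change above 0 (median 0.23). The most abundant per length were *Pros1*, which encodes the anticoagulant protein S, and *F10*, which encodes coagulation factor X. *Pros1* was at 116, 113 and 121 CPM in Atrx-cKO and at 107, 97.2 and 99.9 CPM in control, with no overlap (log2 fold change 0.20 ± 0.08, SE, unadjusted p = 0.0302, adjusted p = 0.992). *Proz*, which encodes protein Z, was at 3.35, 3.22 and 2.89 CPM against 2.45, 2.49 and 1.76 CPM, with no overlap (0.49 ± 0.20, unadjusted p = 0.0435, adjusted p = 0.992). These were the 2 of 8 with an unadjusted p under 0.05 and a higher level, against 1.59% of all genes tested. *F10* and *Prrg4*, a transmembrane Gla protein, overlapped between groups, at 0.27 ± 0.20 and 0.51 ± 0.33 on the log2 scale. The liver-made coagulation genes *F2*, *F9* and *Proc* did not pass the filter, nor did *Ucma*, and *Proc* had 1 read in all.

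Of the genes of vitamin K metabolism, 3 are described. None of these 3 reached an unadjusted p under 0.05 in edgeR's test, and the median of their log2 fold changes was -0.16. *Calu*, whose product calumenin inhibits the carboxylase, was at -0.07 ± 0.13 (SE), and the quinone reductase *Nqo1* at -0.16 ± 0.14. *Aifm2*, which encodes the vitamin K reductase FSP1, was at 20.1, 17.8 and 19.9 CPM in Atrx-cKO and at 20.4, 23.1 and 23.3 CPM in control, with no overlap (-0.21 ± 0.10, unadjusted p = 0.0719, adjusted p = 0.992 in edgeR's test). Groups apart and lower were seen in 4.01% of all genes tested.

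Among 8 receptors and processing genes, 6 were tested (median log2 fold change -0.10). *Ptprv*, which encodes the osteotesticular phosphatase of osteoblasts, was at 14.4, 15.7 and 16.0 CPM in Atrx-cKO and at 18.2, 24.3 and 28.4 CPM in control. Every control library was above every Atrx-cKO library, as for 4.01% of all genes tested. The log2 fold change of -0.62 ± 0.16 (SE) did not pass (edgeR unadjusted p = 0.00536, edgeR adjusted p = 0.992, DESeq2 adjusted p = 0.142). The osteoblast list, given above, was also lower on average in Atrx-cKO, and its part in this was not tested. The TAM receptors *Axl*, *Mertk* and *Tyro3*, which bind GAS6 and of which MERTK and TYRO3 also bind protein S, had log2 fold changes of 0.03 ± 0.11, 0.13 ± 0.15 and -0.25 ± 0.19. The proposed osteocalcin receptors *Gprc6a* and *Gpr158* had 1 read each over the 6 libraries. A count of 0 allows up to 0.0425 to 0.0588 CPM depending on the library. *Gpr37*, another receptor gene of this list, was detected in every library, at 2.86 to 5.27 CPM. Its groups overlapped, with a log2 fold change of -0.10 ± 0.25 (SE).

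The 10 regulators of osteocalcin transcription were all tested, and 8 of 10 had a log2 fold change below 0 (median -0.11). *Sp7*, the osteoblast factor osterix, was at -0.19 ± 0.15 (SE), and *Atf4*, which binds the osteocalcin promoter, at -0.08 ± 0.11. The homeobox genes *Dlx3* and *Msx2* had the largest differences, -0.38 ± 0.17 and -0.76 ± 0.49, and *Msx2* was low throughout, from 0.239 to 0.861 CPM. No regulator had groups apart, and the lowest adjusted p in edgeR's test was 0.992.

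**Figure D5:**
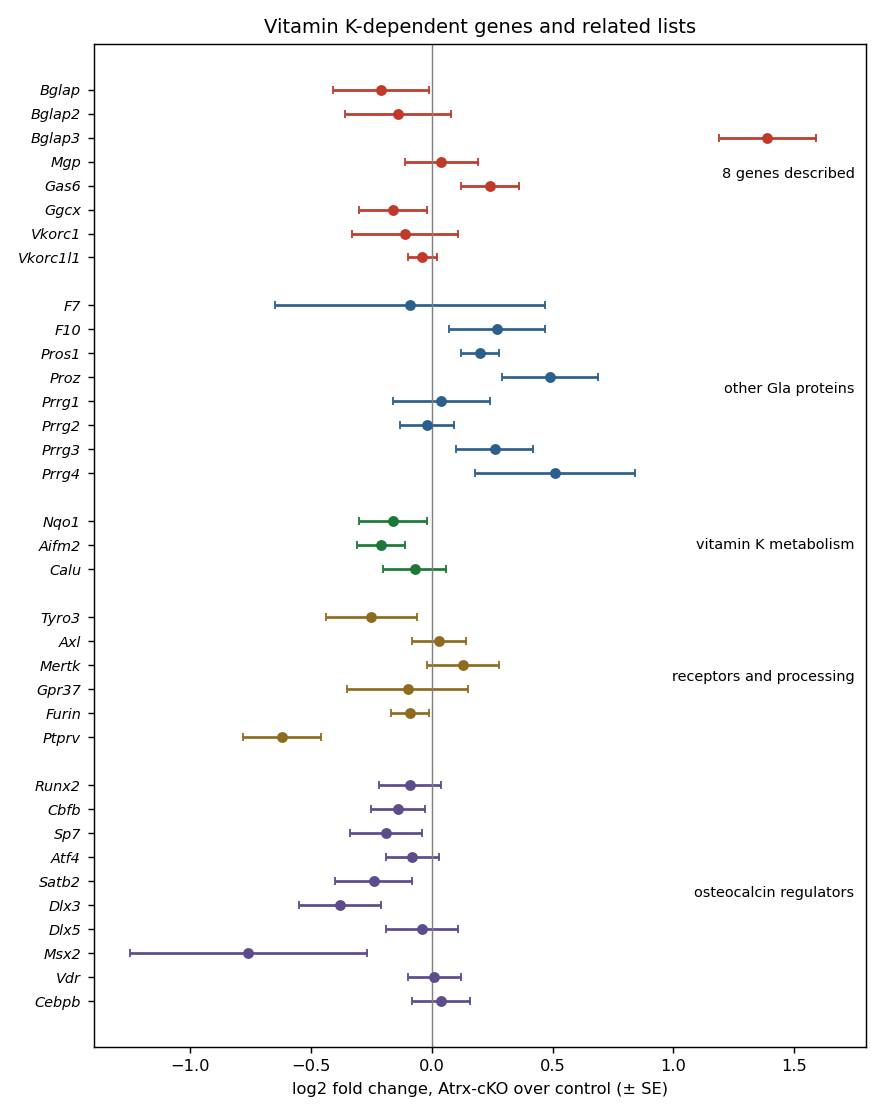
Log2 fold change (Atrx-cKO over control, ± SE, edgeR) of the 8 genes and of the tested genes of 4 related lists. *Bglap3*, at 1.39, is apart from the other 7 genes, which lie between -0.21 and 0.24, and *Ptprv* (-0.62) and *Msx2* (-0.76) are at the low end.

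The genes most alike in pattern over the 6 libraries were listed as a description, by Pearson's r of log2 CPM among 12693 genes with a mean of at least 5 CPM. For *Bglap* they were *Tmem98*, *Secisbp2l*, *Kptn*, *Zfp652* and *Tspyl3* (r from 0.998 down to 0.981). For *Bglap3* they were *Gimap4*, *Rasgrp3*, *Zfp292*, *Nrp1* and *Brd8* (0.991 to 0.986), and for *Mgp* they were *Atp8b1*, *Ash2l*, *Fth1*, *Odc1* and *Nol7* (0.987 to 0.961). The *Bglap3* set had smaller log2 fold changes than *Bglap3*, from 0.12 for *Brd8* to 0.61 for *Nrp1*. The points share libraries and 6 of them leave many genes with a high r.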

How the data were processed

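Total RNA was extracted from tibias, and polyadenylated RNA was sequenced as 150-base paired reads. The authors deposited raw counts per gene, 1 table per library, without normalization. The submitters' processing notes name GRCm38 and DESeq2; aligner, counter and the counting strand are not given in the sources used here. The labels call the libraries strand specific but name a TruSeq kit that does not usually mark strand, so it is not known whether reads of overlapping genes on opposite strands were told apart. Between 51.6% and 52.4% of the counted reads of each library were on no feature, 3.69% to 4.56% were not unique and 0.644% to 0.701% ambiguous; the 5 summary entries stayed out of library sizes and tests.

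Genes were named by GENCODE M21, which matched 55141 of 55401 identifiers. Counts were fitted with edgeR 4.0.16 in R 4.3.3 (TMM, filterByExpr, glmQLFit and glmQLFTest, genotype alone), with Benjamini-Hochberg adjustment over the 20636 genes tested. DESeq2 1.42.0 was the alternative test. The fits were tested on simulated data. Ratios used TMM-scaled CPM with 0.5 CPM added and an exact two-sided permutation test. Promoters were RefSeq's, matched for 6 of the 8 genes and not for *Bglap2* or *Mgp*. Numbered replicates are separate mice; replicates of a group differed by more than sampling noise (chi-square per degree of freedom of at least 17.1).

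The genes named were the 8 and up to 4 of each related list. From each list these were the 2 most abundant per length and the 2 of largest fold change. The 5 tested neighbors on each side of the cluster and the 5 most similar patterns were also named. Pseudogenes inside the cluster, marker genes and *Gm21974* were named after their values were seen. So were *Gpr37* and the list genes at very low counts (*F2*, *F9*, *Proc*, *Ucma*, *Gprc6a* and *Gpr158*). The genes and lists were chosen with earlier results of these data known, and *Bglap3* was among the genes the study selected on these samples. In the list of vitamin K metabolism, 1 gene is not reported here.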

Additional observations from a re-analysis of the deposited data

How the results depend on the processing

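The *Bglap3* difference kept its direction under all alternatives run, with a log2 fold change from 1.26 to 1.52, but its call depended on the tool and filter. It was called by DESeq2 (adjusted p = 1.96e-06) and by edgeR without a filter on low counts (adjusted p = 0.0373), and not by edgeR with RLE (0.293) or upper quartile (0.33) scaling, with at least 10 counts in every library (0.291) or with a replicate block (0.419). The cause was not tested.

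Over all genes, edgeR called 3 higher and 0 lower. DESeq2 called 10 higher and 13 lower, edgeR without a filter 4 higher and 1 lower, and with at least 10 counts in every library 1 higher. With the replicate block, edgeR called 0 genes higher and 0 lower, *Bglap3* kept a log2 fold change of 1.39, and the ratio of *Bglap3* to the other copies differed by 1.39 (exact paired p = 0.25, the smallest 3 pairs allow), *Bglap3* relative to osteoblast genes by 1.58 and summed osteocalcin by -0.18. Same-numbered libraries showed little joint deviation (correlations of 0.00, 0.11 and -0.10), although library 3 of each group stood apart in some cartilage genes. The main fit did not treat the numbers as pairs. Leaving out 1 library gave 0 to 5 genes higher and 0 to 1 lower in edgeR. DESeq2 fits with 1 library left out, added after seeing the data, called 7, 9 and 11 genes higher and 14, 9 and 15 lower without Atrx-cKO libraries 1, 2 and 3, and 24, 8 and 12 higher and 47, 6 and 5 lower without control libraries 1, 2 and 3.

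The ratio to the other copies ranged from 1.33 to 1.47 with 1 library left out and was 1.54 with 0.1 CPM added in place of 0.5. The ratio to osteoblast genes ranged from 1.51 to 1.70 and was 1.57 with *Col1a1* alone, and summed osteocalcin from -0.36 to -0.01. With 1 library left out, log2 fold changes lay between -0.39 and -0.06 for *Bglap*, -0.27 and 0.12 for *Bglap2*, -0.11 and 0.12 for *Mgp*, 0.16 and 0.35 for *Gas6*, -0.30 and -0.03 for *Ggcx*, -0.26 and 0.01 for *Vkorc1* and -0.06 and -0.03 for *Vkorc1l1*, and none of these was called. Signs near 0 turned for *Bglap2* (0.01 without Atrx-cKO library 1, 0.12 without control library 2), *Mgp* (-0.03 and -0.11 without the same libraries) and *Vkorc1* (0.01 without Atrx-cKO library 3), with either tool. The 3 copies summed as 1 gene gave -0.19 (edgeR adjusted p = 0.992). *Bglap3* rested on 101 to 363 reads per library and *Vkorc1* on 148 to 244.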

Other observations

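Markers of other cells of bone and marrow gave 0 calls in edgeR. The 8 osteoclast markers, led by *Acp5*, all had a log2 fold change below 0 (median -0.40), and summed to 2440, 2010 and 2740 CPM in Atrx-cKO and to 3140, 2300 and 3790 CPM in control. The 6 osteocyte markers, led by *Dmp1*, had a median of -0.17. Medians were 0.11 for 8 erythroid, 0.19 for 8 neutrophil, 0.18 for 7 B cell and 0.14 for 6 macrophage markers, -0.27 for 6 adipocyte markers and -1.51 for 10 skeletal muscle markers, the last with control library 3 far above the other libraries. Of 5 liver markers 1 was tested, *Apoa2*, at 0.0901 to 0.376 CPM and 6 to 22 reads per library. Every Atrx-cKO library was above every control library, as for 4.30% of all genes tested. Its log2 fold change was 1.18 ± 0.48 (SE; edgeR unadjusted p = 0.0402, adjusted p = 0.992). The liver list summed to at most 0.526 CPM in any library.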
